A study of Mus musculus with 9 samples.

Results

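Messenger RNA of 10 genes was examined: 9 transcriptional targets of the tumour suppressor p53 (Cdkn1a, Mdm2, Ccng1, Bax, Bbc3, Trp53inp1, Sesn1, Phlda3 and Gdf15) and Cdkn2a, the cell cycle inhibitor locus that acts upstream of p53 and of the retinoblastoma protein. They were selected by symbol from the 43629 Ensembl genes of the count tables, and all 10 passed the filter on low counts that left 16561 genes for testing. The cells came from the ventricles of CD-1 mice (an outbred strain) at embryonic day 13.5. They were enriched for cardiomyocytes by differential attachment, cultured for 48 h, transfected with 0.012 pmol of siRNA, and harvested 72 h later by magnetic sorting for the surface protein VCAM1. All 3 groups are of this strain, stage and culture, and the siRNA is the only difference between them that the labels give. It was a commercial negative control, a pool of 4 siRNAs against Dnmt3a, or a pool of 4 against Dnmt3b, with 3 libraries in each group. The targets are the de novo DNA methyltransferases, which write new methyl marks on cytosines of CG dinucleotides. Each enzyme was targeted with a single pool for a short time, so an effect of the pool by another route cannot be told apart from an effect through its target.

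In an undisturbed cell, p53 is held at a low level by Mdm2, the ubiquitin ligase that marks it for destruction and is itself a p53 target. When DNA damage or another stress stabilises p53, it switches on genes that halt the cell cycle, such as Cdkn1a, genes that open the mitochondrial route to cell death, such as Bax and Bbc3, and genes that temper growth and metabolism, such as Sesn1. Cdkn2a makes a pair of unrelated proteins from separate first exons: p16INK4a, which blocks the cyclin D kinases Cdk4 and Cdk6, and p19ARF, which blocks Mdm2. Loss of DNA methylation is known to raise p53 activity in some cultured cells, and the Cdkn2a locus is known as a frequent site of promoter methylation in tumours.

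The siRNAs lowered their targets. Dnmt3a stood at 232, 270 and 275 TMM-scaled CPM (counts divided by a scaled library total) in control libraries 1, 2 and 3. It stood at 40.3, 52.9 and 46.3 CPM after DNMT3a siRNA, 18% of control (log2 fold change -2.48 ± 0.11 SE, adjusted p = 3.42e-06). Dnmt3b was low throughout, at 4.26 to 4.33 CPM in controls and 1.17 to 2.43 CPM after DNMT3b siRNA, 39.6% of control (log2 fold change -1.34 ± 0.23, adjusted p = 0.00816, or 0.0538 without DNMT3b library 3). All adjusted p-values for genes are from edgeR's quasi-likelihood F test over the 16561 genes with Benjamini-Hochberg adjustment, and a gene with an adjusted p under 0.05 is said to have risen or fallen. The labels call the cells cardiomyocytes. Every cardiomyocyte marker and every fibroblast marker on the lists used was measured in these libraries, so being measured does not set these cell types apart. The summed level of 12 cardiomyocyte markers was 2330 to 3000 CPM in the controls, 5170 to 6890 CPM after DNMT3a siRNA and 6650 to 7890 CPM after DNMT3b siRNA. The 10 fibroblast markers summed to 37500 to 58800 CPM over the 9 libraries. Reads counted in genes numbered 27852412 to 35896018 per library. Whether the 3 libraries of a group stem from different litters or cultures is not stated in the labels. The p-values therefore measure only how far these samples spread, and that spread may be technical.

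Cdkn2a was the single gene of the 10 to change. It fell after DNMT3a siRNA to 30.2% of control, and nothing among the 9 p53 targets passed the test in any comparison. Of all tested genes, 10.1% changed with DNMT3a siRNA, beside 1 of the 10 here. Of those that changed, 48.3% rose, or 61.1% when libraries were scaled by their totals alone. With DNMT3b siRNA 5.64% of all tested genes changed, and 9.55% differed between the knockdowns. The count of the 10 was 0 in both of these comparisons by edgeR, with 1 at an unadjusted p under 0.05 in each. With DNMT3a siRNA against control, 3 of the 10 were under that value. Of all 16561 tested genes, 4127 were under it with DNMT3a siRNA, 3556 with DNMT3b siRNA and 4188 between the knockdowns. DESeq2 and limma-voom called 0 of the 10 with DNMT3b siRNA and 1 between the knockdowns, which was Cdkn2a. The median log2 fold change of the 10 genes was -0.12 with DNMT3a siRNA and -0.05 with DNMT3b siRNA, beside 0.02 and 0 for all tested genes. Both comparisons use the same control libraries.

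**Figure D1:**
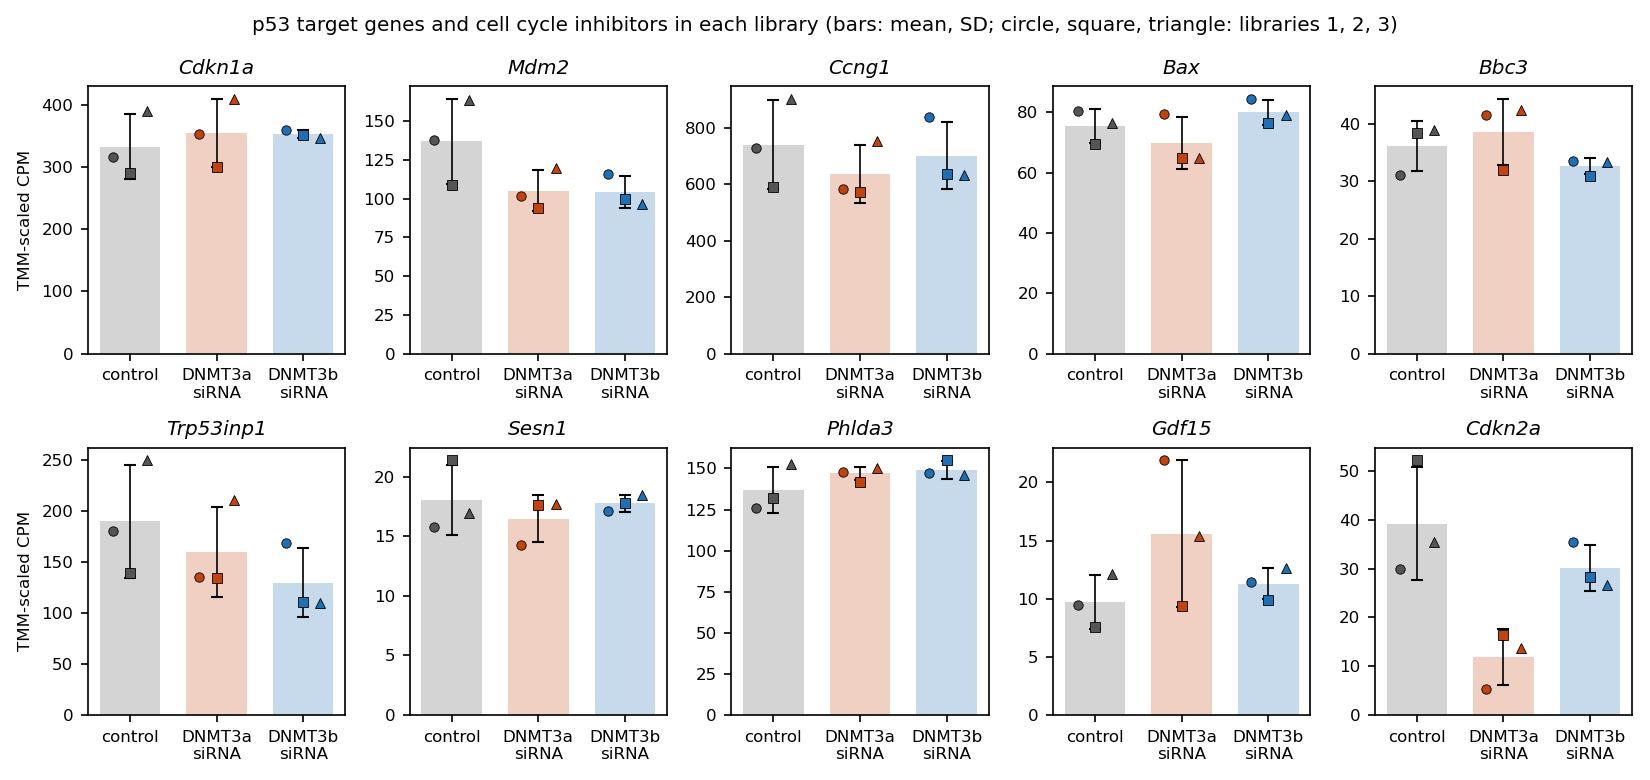
TMM-scaled CPM of the 10 genes in each library (y axis) by siRNA group (x axis); bars are the mean and error bars the SD over 3 libraries, and circles, squares and triangles are libraries 1, 2 and 3. For Cdkn2a the DNMT3a siRNA libraries, at 5.42 to 16.4 CPM, lie below all controls, at 29.9 to 52.2 CPM, while the libraries of the groups overlap for the other 9 genes.

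Compared per kilobase of exon (RPKM), the 10 genes spanned a wide range of levels in control cells. Ccng1 had the highest mean, 210 RPKM, followed by Cdkn1a at 93.7 and Phlda3 at 87.8 RPKM. Bax stood at 47.9, Cdkn2a at 33.5, Trp53inp1 at 29.3 and Mdm2 at 26.9 RPKM, and Bbc3 at 17 RPKM. Gdf15 at 5.24 and Sesn1 at 4.53 RPKM lay near the median of all tested genes, 4.04 RPKM. Cdkn1a (SD 14.6) and Phlda3 (SD 8.89) do not differ beyond their spread, nor do Cdkn2a (SD 9.88), Trp53inp1 (SD 8.62) and Mdm2 (SD 5.41), nor Gdf15 (SD 1.24) and Sesn1 (SD 0.737). The highest control library exceeded the lowest by 1.16 times for Bax to 1.79 times for Trp53inp1, with a median of 1.43 times. The same ratio ran from 1.05 times for Phlda3 to 3.03 times for Cdkn2a with DNMT3a siRNA and from 1.04 times for Cdkn1a to 1.55 times for Trp53inp1 with DNMT3b siRNA. Control library 3 was the highest of its group for 7 of the 10 genes and control library 2 the lowest for 6. DNMT3a library 3 was the highest for 7 and DNMT3a library 2 the lowest for 7. In the DNMT3b siRNA group library 1 was the highest for 7 and library 3 the lowest for 6.

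Among the cell cycle inhibitors, Cdkn2a and its neighbour Cdkn2b fell after DNMT3a siRNA, and Cdkn1a did not pass the test. Cdkn2a had 29.9, 52.2 and 35.5 CPM in control libraries 1 to 3, 5.42, 16.4 and 13.7 CPM after DNMT3a siRNA, and 35.5, 28.2 and 26.6 CPM after DNMT3b siRNA. The DNMT3a siRNA libraries were all below the other 6, while the DNMT3b siRNA and control libraries overlapped. Its log2 fold change with DNMT3a siRNA was -1.73 ± 0.38 (adjusted p = 0.029, 95% interval -2.61 to -0.84) and -0.38 ± 0.37 with DNMT3b siRNA (adjusted p = 0.605). Taken directly against DNMT3b siRNA, the level with DNMT3a siRNA differed by -1.34 ± 0.38 (adjusted p = 0.069), which did not pass the test. Of all tested genes, 26.7% had groups that did not overlap between DNMT3a siRNA and control, 26.1% between DNMT3b siRNA and control, and 32.3% between the knockdowns. Of the 10 genes, Cdkn2a alone had no overlap with DNMT3a siRNA against control and between the knockdowns, and none did with DNMT3b siRNA against control. In RNA of a mixed cell population, fewer cells of a type and less RNA per cell cannot be told apart.

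The call on Cdkn2a was a narrow one. Its direction was the same in 18 of 18 alternative analyses, with log2 fold changes of -2.05 to -1.38, but the adjusted p ran from 0.000797 to 0.0896 and passed in 9 of the 18. The call was lost without any of control library 1 (adjusted p = 0.0511), control library 2 (0.0617), control library 3 (0.0722), DNMT3a library 3 (0.077), DNMT3b library 2 (0.0548) or DNMT3b library 3 (0.0514), without all libraries numbered 2 (0.0645), with no filter on low counts (0.0896), and in a fit of the 2 groups alone (0.0707).

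Cdkn2b encodes p15INK4b, a close relative of p16INK4a that blocks the same kinases. The controls had 76.7, 107 and 79.6 CPM of Cdkn2b, and the DNMT3a siRNA libraries 36.7, 57.3 and 38.4 CPM. After DNMT3b siRNA it had 79.4, 78.7 and 80.4 CPM, within the range of the controls. Cdkn2b fell to 50.3% of control with DNMT3a siRNA (log2 fold change -0.99 ± 0.18, adjusted p = 0.00733) and to 55.5% of the level with DNMT3b siRNA (-0.85 ± 0.18, adjusted p = 0.0167). The fall against control held in 18 of 18 alternatives. That against DNMT3b siRNA was lost without DNMT3a library 1 (adjusted p = 0.0652), DNMT3a library 3 (0.0663), DNMT3b library 2 (0.0627) or DNMT3b library 3 (0.0634).

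Cdkn2a and Cdkn2b lie side by side on chromosome 4, so the genes around them were then examined, a choice made after their values were seen. The nearest gene with a test on the other side of Cdkn2a is Mtap, which encodes the methylthioadenosine phosphorylase of methionine salvage and is often lost together with Cdkn2a in tumours. The controls had 128, 119 and 115 CPM of Mtap, and the DNMT3a siRNA libraries 55.9, 78.5 and 46.1 CPM. After DNMT3b siRNA it had 122, 115 and 114 CPM. It fell to 49.9% of control with DNMT3a siRNA (log2 fold change -1 ± 0.16, adjusted p = 0.00379) and stood at 97% of control with DNMT3b siRNA (-0.04 ± 0.16, adjusted p = 0.905). The direct difference between the knockdowns passed as well (-0.96 ± 0.16, adjusted p = 0.00614), and both calls held in 18 of 18 alternatives.

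From the start of Mtap to the end of Cdkn2b is 174 kb of GRCm38 (Mtap at chr4:89137122-89181081 on the plus strand, Cdkn2a at chr4:89274471-89294653 and Cdkn2b at chr4:89306299-89311039 on the minus strand). Within 3 Mb on either side of Cdkn2a, 17 other genes were tested. The 10 of them with at least 20 CPM on average had log2 fold changes of -0.33 to 0.72 with DNMT3a siRNA. By edgeR 0 of these 10 passed, the smallest adjusted p being 0.0844, and 3 had an unadjusted p under 0.05. Klhl9, the nearest of the 10 beyond Mtap, had a log2 fold change of -0.09. Of the 7 others, at lower levels, Slc24a2 rose from a very low level (log2 fold change 1.55 at a mean of 0.641 CPM, adjusted p = 0.0282).

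**Figure D2:**
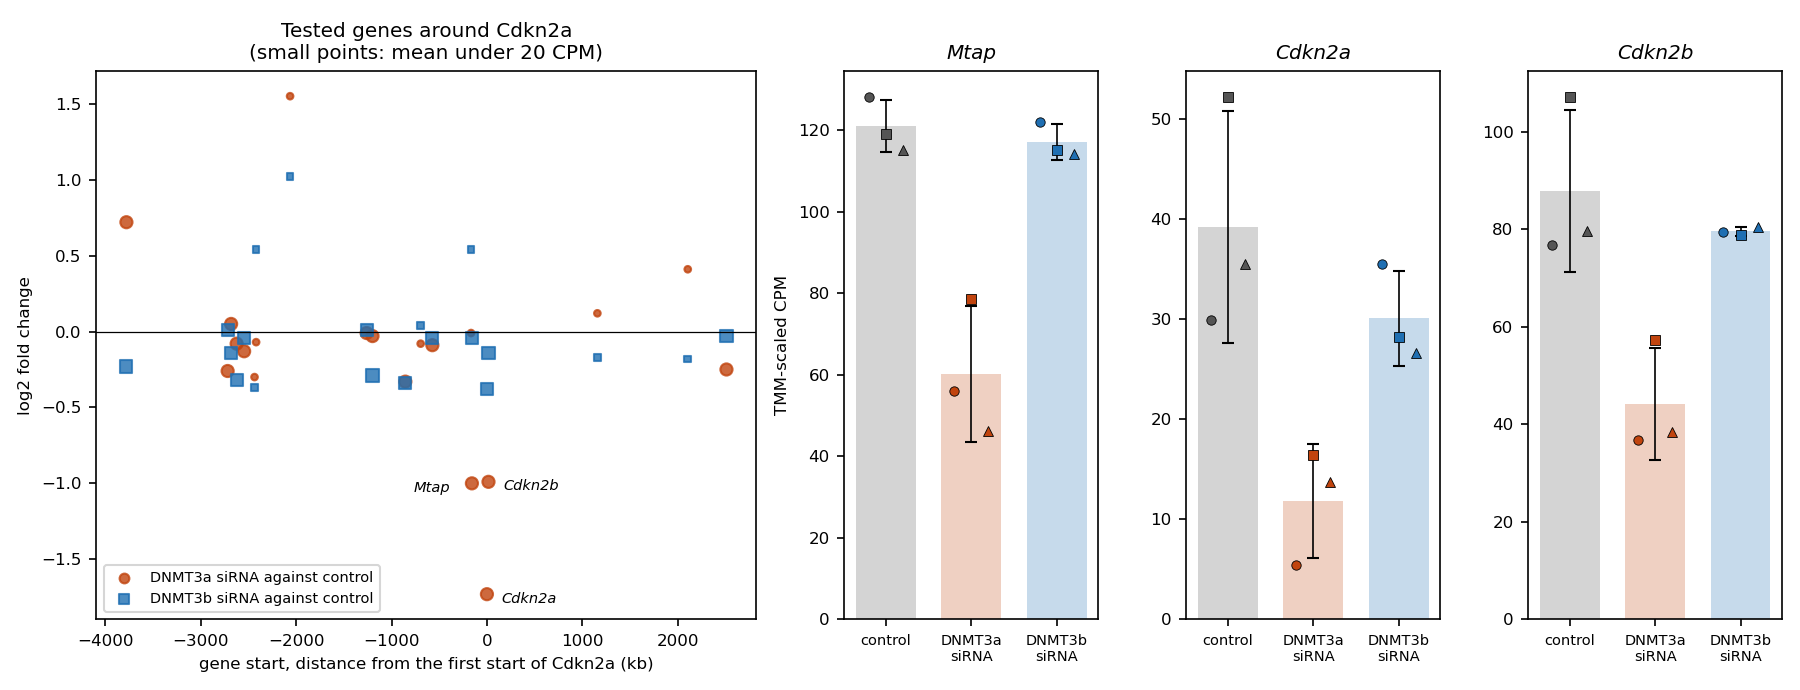
Left, log2 fold change against control (y axis) of the tested genes near Cdkn2a by the distance of their starts from the first start of Cdkn2a in kilobases (x axis), for DNMT3a siRNA (circles) and DNMT3b siRNA (squares), with small points for genes under 20 CPM; right, TMM-scaled CPM of Mtap, Cdkn2a and Cdkn2b by group (bars, mean; error bars, SD over 3 libraries; circles, squares and triangles, libraries 1, 2 and 3). The 3 named genes are at log2 fold changes of -1, -1.73 and -0.99 with DNMT3a siRNA and at -0.04, -0.38 and -0.14 with DNMT3b siRNA.

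Since the siRNAs target enzymes that methylate CG dinucleotides, the sequence before the start sites of the 2 inhibitors is shown, with each CG in capitals. Each run covers the 200 bases that end 51 bases before a start site, read 5′ to 3′ on the minus strand of GRCm38.p6 from the RefSeq promoter table. Methylation was not measured in these libraries.
Cdkn2a start 1, p19ARF exon (chr4:89294670-89294869): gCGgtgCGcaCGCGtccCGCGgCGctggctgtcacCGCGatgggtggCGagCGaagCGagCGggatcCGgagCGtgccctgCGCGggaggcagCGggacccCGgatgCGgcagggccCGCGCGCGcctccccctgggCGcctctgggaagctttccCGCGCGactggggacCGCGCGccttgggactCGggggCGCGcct
Cdkn2a start 2, p16INK4a exon (chr4:89282243-89282442): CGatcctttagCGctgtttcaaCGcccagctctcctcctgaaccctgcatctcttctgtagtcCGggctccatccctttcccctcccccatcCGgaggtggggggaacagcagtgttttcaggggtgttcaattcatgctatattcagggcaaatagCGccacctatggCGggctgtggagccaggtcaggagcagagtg
Cdkn2b (chr4:89311083-89311282): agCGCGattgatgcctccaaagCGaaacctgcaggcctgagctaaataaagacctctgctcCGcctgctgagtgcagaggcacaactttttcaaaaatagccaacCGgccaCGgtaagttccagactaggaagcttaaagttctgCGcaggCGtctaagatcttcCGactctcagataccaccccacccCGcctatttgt
The p19ARF start held 34 CG in this window, and 0.813% of 32851 promoters in the table held at least as many. The p16INK4a start held 7 and the Cdkn2b start 10, levels that 38.3% and 29.3% of promoters reach, beside a median of 4. The gene counts add the p19ARF and p16INK4a transcripts together, so which of them fell is not known from these files.

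Markers of some other cell types also differed between the groups. Of all tested genes, 10.1% changed with DNMT3a siRNA and 5.64% with DNMT3b siRNA. The summed level of 14 macrophage markers was 27.3 to 77.1 CPM in the controls, 11.4 to 23.5 CPM after DNMT3a siRNA and 25.9 to 59 CPM after DNMT3b siRNA. None of the 14 was at 0 in any library. With DNMT3a siRNA 4 of them fell, with 12 at an unadjusted p under 0.05 and a median log2 fold change of -1.9. With DNMT3b siRNA 0 fell by edgeR, with 0 at an unadjusted p under 0.05 and a median of -0.76. Of all 16561 tested genes, 4127 and 3556 were under that value. Of 10 fibroblast markers 4 fell and of 12 cardiomyocyte markers 10 rose with DNMT3a siRNA. With DNMT3b siRNA 4 fibroblast markers fell and 10 cardiomyocyte markers rose. Of 9 epicardial markers 3 fell and 1 rose with DNMT3a siRNA, and 1 fell with DNMT3b siRNA. Epicardial markers summed to 2230 to 2670 CPM in the controls, 1510 to 2060 CPM with DNMT3a siRNA and 1530 to 2170 CPM with DNMT3b siRNA. The fibroblast sums overlapped, at 39300 to 58800, 39700 to 43300 and 37500 to 44300 CPM in the same order. Of 9 measured endothelial and endocardial markers, 0 passed with DNMT3a siRNA by edgeR, with 1 at an unadjusted p under 0.05. With DNMT3b siRNA 1 of these rose. Their sums were 332 to 375, 330 to 346 and 354 to 399 CPM. The part of these cell types in the values of Cdkn2a was not tested.

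Cdkn1a (chr17:29090976-29100727, plus strand) encodes p21, the inhibitor of cyclin-dependent kinases that carries out much of the p53 arrest of the cell cycle. It had 316, 291 and 391 CPM in the controls, 353, 300 and 410 CPM after DNMT3a siRNA and 360, 352 and 347 CPM after DNMT3b siRNA. The 3 groups overlapped, with the DNMT3b siRNA libraries closest together. Its log2 fold change with DNMT3a siRNA was 0.09 ± 0.13 (adjusted p = 0.733) and 0.08 ± 0.13 with DNMT3b siRNA (adjusted p = 0.758). The 95% intervals ran from 0.875 to 1.3 times and from 0.871 to 1.29 times the control level.

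Ccng1 (chr11:40748552-40755311, minus strand), cyclin G1, is a p53 target that recruits a phosphatase to Mdm2. It had 728, 588 and 902 CPM in the controls, 581, 571 and 753 CPM after DNMT3a siRNA and 837, 635 and 633 CPM after DNMT3b siRNA. The groups overlapped. Its log2 fold change with DNMT3a siRNA was -0.22 ± 0.18 (adjusted p = 0.498, 0.656 to 1.12 times control) and -0.08 ± 0.17 with DNMT3b siRNA (adjusted p = 0.85, 0.725 to 1.24 times control).

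The 4 remaining inhibitors of cyclin-dependent kinases did not pass edgeR's test in the fit of all libraries with group as its only term. Cdkn1b, which encodes p27, had 71.9 ± 7.3 CPM in controls (SD, n = 3), 66 ± 5.53 with DNMT3a siRNA and 74.3 ± 6.52 with DNMT3b siRNA. Cdkn1c, an imprinted gene that encodes p57, varied most among controls, at 42.3 ± 18.8 CPM, beside 49.5 ± 14.1 with DNMT3a siRNA and 76.4 ± 5.79 with DNMT3b siRNA. Its DNMT3b siRNA libraries were all above the controls (log2 fold change 0.85 ± 0.30, adjusted p = 0.15). This difference passed by DESeq2 (0.83, adjusted p = 0.0203) and without control library 2 (1.27, adjusted p = 0.00633). It also passed by edgeR with the library number as a block (0.93, adjusted p = 0.0101). Cdkn2c and Cdkn2d, the other INK4 genes, lie away from the Cdkn2a locus. Cdkn2c had log2 fold changes of 0.28 ± 0.15 and 0.23 ± 0.15 with DNMT3a and DNMT3b siRNA, and Cdkn2d of 0.31 ± 0.13 and 0.39 ± 0.13, with adjusted p-values of 0.114 to 0.406. Cdkn2d passed with DNMT3b siRNA when DNMT3b library 1 was left out (0.52, adjusted p = 0.0303).

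In the loop between p53 and its inhibitor, no change passed the test in the fit of all libraries by group. Mdm2 (chr10:117688875-117710758, minus strand) had 138, 109 and 164 CPM in the controls, 102, 93.9 and 120 CPM after DNMT3a siRNA and 116, 99.7 and 96.6 CPM after DNMT3b siRNA. Control libraries 1 and 3 were above all 6 knockdown libraries, and control library 2 lay within their range. Against the control of the same number, the log2 ratios of Mdm2 were -0.44, -0.21 and -0.45 in DNMT3a libraries 1, 2 and 3, lower in 3 of 3. This does not set Mdm2 apart. Ccng1, Bax, Trp53inp1 and Cdkn2a were also lower in 3 of 3, and Cdkn1a and Gdf15 higher in 3 of 3. The fit by group gave Mdm2 log2 fold changes of -0.38 ± 0.15 with DNMT3a siRNA (adjusted p = 0.135) and -0.40 ± 0.15 with DNMT3b siRNA (adjusted p = 0.144). Without control library 2 these became -0.52 (adjusted p = 0.0223) and -0.54 (adjusted p = 0.021). No other fit that left out a single library called Mdm2. Without all libraries numbered 2, Mdm2 was called with DNMT3b siRNA (adjusted p = 0.0473) but not with DNMT3a siRNA. Between the knockdowns the log2 fold change of Mdm2 was 0.02 ± 0.15, with an interval of 0.809 to 1.27 times. Trp53, which encodes p53, stood at 97.1 ± 8.42 CPM in the controls, 89.4 ± 3.43 with DNMT3a siRNA and 82.8 ± 1.96 with DNMT3b siRNA (adjusted p = 0.401 and 0.122). Its difference with DNMT3b siRNA passed in 1 of 18 alternatives, the fit without control library 2 (adjusted p = 0.031). Mdm4, a relative of Mdm2 that also restrains p53, stood at 131 ± 22, 113 ± 8.86 and 107 ± 6.65 CPM (adjusted p = 0.292 and 0.173).

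The 4 genes of p53-dependent cell death did not pass either. Bax (chr7:45461697-45466898, minus strand), which forms pores in the outer mitochondrial membrane, had 80.5, 69.6 and 76.4 CPM in the controls, 79.6, 65.0 and 64.7 CPM after DNMT3a siRNA and 84.5, 76.3 and 79.1 CPM after DNMT3b siRNA. Its log2 fold changes were -0.11 ± 0.10 (adjusted p = 0.535) and 0.08 ± 0.10 (adjusted p = 0.678). The intervals, 0.795 to 1.07 and 0.912 to 1.23 times control, are among the narrowest of the 10 genes. Bbc3 (chr7:16308393-16318205, plus strand), which encodes the BH3-only protein PUMA that activates Bax, had 31.0, 38.3 and 38.9 CPM in the controls, 41.5, 32.0 and 42.4 CPM after DNMT3a siRNA and 33.5, 30.9 and 33.3 CPM after DNMT3b siRNA. Groups again overlapped, at log2 fold changes of 0.10 ± 0.12 (adjusted p = 0.692) and -0.15 ± 0.12 (adjusted p = 0.54).

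Trp53inp1 (chr4:11156431-11174379, plus strand) encodes a nuclear and autophagy protein that promotes the p53 death response. It had 181, 139 and 250 CPM in the controls, 135, 134 and 211 CPM after DNMT3a siRNA and 169, 111 and 110 CPM after DNMT3b siRNA. The spread was wide in each group, with library 3 highest in the control and DNMT3a siRNA groups and lowest in the DNMT3b siRNA group. The log2 fold changes of -0.25 ± 0.28 (adjusted p = 0.652) and -0.55 ± 0.28 (adjusted p = 0.301) therefore have wide intervals, 0.543 to 1.31 and 0.441 to 1.06 times control. Phlda3 (chr1:135766119-135769136, plus strand), a small pleckstrin-homology protein that opposes Akt, had the smallest standard errors of the 10. It had 126, 132 and 153 CPM in the controls, 148, 142 and 150 CPM after DNMT3a siRNA and 147, 155 and 146 CPM after DNMT3b siRNA. Its log2 fold changes were 0.10 ± 0.08 (adjusted p = 0.513) and 0.12 ± 0.08 (adjusted p = 0.422).

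Of the 2 genes of stress and metabolism, Gdf15 had its highest libraries after DNMT3a siRNA. Gdf15 (chr8:70629393-70632456, minus strand) encodes a secreted stress hormone that is induced both by p53 and by the integrated stress response. It had 9.42, 7.58 and 12.1 CPM in the controls, 21.9, 9.36 and 15.4 CPM after DNMT3a siRNA and 11.4, 9.9 and 12.6 CPM after DNMT3b siRNA. DNMT3a libraries 1 and 3 were above every other library, while DNMT3a library 2 was below 2 of the 3 controls. Against the control of the same number, the log2 ratios of Gdf15 were 1.22, 0.31 and 0.34 in DNMT3a libraries 1, 2 and 3, higher in 3 of 3. The fit by group gave Gdf15 a log2 fold change of 0.68 ± 0.28 with DNMT3a siRNA (adjusted p = 0.169), and 0.93 without DNMT3a library 2 (adjusted p = 0.0227). With DNMT3b siRNA it was 0.22 ± 0.28 (adjusted p = 0.707). Sesn1 (chr10:41809935-41908424, plus strand), a sestrin that restrains the growth kinase mTORC1, had 15.8, 21.4 and 17.0 CPM in the controls, 14.3, 17.6 and 17.7 CPM after DNMT3a siRNA and 17.1, 17.8 and 18.5 CPM after DNMT3b siRNA. The groups overlapped, with log2 fold changes of -0.13 ± 0.13 (adjusted p = 0.615) and -0.02 ± 0.13 (adjusted p = 0.958).

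**Figure D3:**
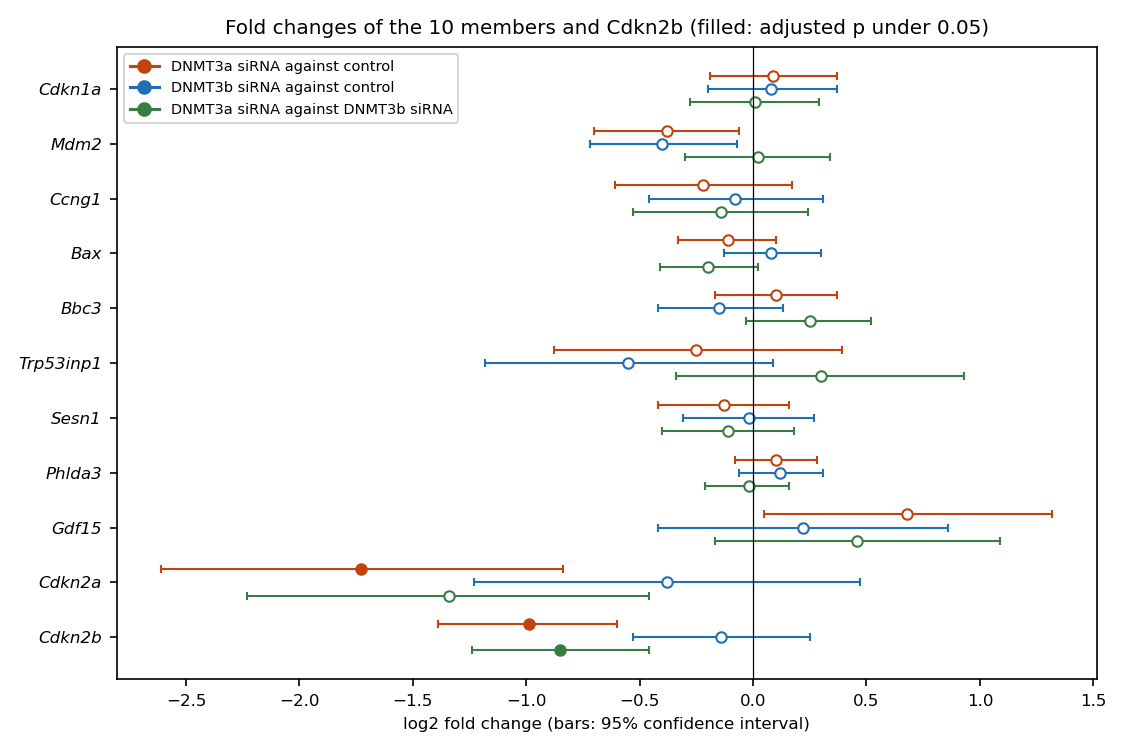
Log2 fold changes (x axis) of the 10 genes and Cdkn2b (y axis) in the 3 comparisons, with bars for the 95% confidence interval and filled points for an adjusted p under 0.05. Cdkn2a and Cdkn2b are filled at -1.73 and -0.99 with DNMT3a siRNA against control and Cdkn2b at -0.85 between the knockdowns, and no point of the 9 p53 targets is filled.

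The knockdowns were also compared directly with each other, which needs no control library. Beside Cdkn2a, the largest differences among the 10 genes were in Gdf15 (log2 fold change 0.46 ± 0.28, adjusted p = 0.34), Trp53inp1 (0.30 ± 0.28, adjusted p = 0.548) and Bbc3 (0.25 ± 0.12, adjusted p = 0.245). Bax was lower with DNMT3a than with DNMT3b siRNA by 0.20 ± 0.10 on the log2 scale (adjusted p = 0.241). The 5 others had absolute differences of at most 0.14, and the median over the 10 was -0.01, beside 0.01 for all tested genes.

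Some targets of p53 had a sequence like its binding site near the start. RefSeq promoter windows, from 250 bases before to 50 bases after a start in GRCm38.p6, were found for 9 of the 10 genes, with 15 windows in all. The consensus p53 half-site, searched on both strands, was present in 5 of the 15 windows and in 8.36% of the 32851 promoters of this length. Cdkn1a and Mdm2 are shown, as the gene that carries out the arrest and the gene that closes the loop, with the half-site in capitals between 10 bases on each side.
Cdkn1a start 1 (chr17:29090918-29090947, plus strand): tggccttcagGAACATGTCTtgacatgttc
Mdm2 start 1 (chr10:117710925-117710954, minus strand): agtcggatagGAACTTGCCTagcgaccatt
The other matches were a further one in Cdkn1a and 1 each in Ccng1, Bax and Sesn1. Response elements of p53 often lie in introns or farther upstream, outside these windows, and binding of p53 was not measured here.

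Other p53 targets, from a list of 48 measured genes, showed changes in both directions. With DNMT3a siRNA 2 rose and 5 fell, with a list median of -0.16 beside 0.02 for all tested genes. With DNMT3b siRNA 4 rose and 0 fell (median -0.11). When the library number was taken as a block, 12 were called with DNMT3a siRNA and 9 with DNMT3b siRNA. The same block called 14.3% and 10.9% of all tested genes. Without the block, 14.6% of the list was called with DNMT3a siRNA and 8.33% with DNMT3b siRNA. The shares of all tested genes were 10.1% and 5.64%. In each comparison with control, 18 of the 48 had an unadjusted p under 0.05, beside 4127 and 3556 of all 16561 tested genes. The number called moved between 2 and 8 with DNMT3a siRNA, and between 1 and 9 with DNMT3b siRNA, as each library was left out in turn. Trp53i11, a membrane protein gene induced by p53, fell from 25.7 ± 1.42 to 15.4 ± 0.485 CPM with DNMT3a siRNA (log2 fold change -0.74 ± 0.10, adjusted p = 0.00139). Plk3, a stress kinase, fell from 28.9 ± 4.42 to 19.1 ± 1.05 CPM (-0.60 ± 0.11, adjusted p = 0.00769). Btg2, an antiproliferative gene, rose with DNMT3b siRNA from 142 ± 9.69 to 216 ± 15.8 CPM (0.61 ± 0.11, adjusted p = 0.0109). These 3 calls held in 18 of 18 alternatives. Eda2r, a death receptor gene, fell with DNMT3a siRNA from 115 ± 28.3 to 56.5 ± 5 CPM (-1.03 ± 0.21, adjusted p = 0.0156), a call lost without control library 1, control library 3 or DNMT3a library 1 and with no filter, at adjusted p-values up to 0.0775. Thbs1, which encodes a secreted inhibitor of angiogenesis, was lower with DNMT3a than with DNMT3b siRNA (4200 ± 925 against 8810 ± 357 CPM, log2 fold change -1.07 ± 0.18, adjusted p = 0.00614).

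Of 6 measured relatives of Sesn1, Trp53inp1, Phlda3 and Ccng1, 1 rose with DNMT3a siRNA and 5 did not pass, while 1 rose, 1 fell and 4 did not pass with DNMT3b siRNA. These are 16.7% and 33.3% of a short list, beside 10.1% and 5.64% of all tested genes. Sesn3 fell with DNMT3b siRNA from 25.4 ± 3.19 to 15 ± 1.36 CPM (log2 fold change -0.76 ± 0.12, adjusted p = 0.00427), and Trp53inp2 rose from 358 ± 15.9 to 514 ± 29.8 CPM (0.52 ± 0.08, adjusted p = 0.00481). Both held in 18 of 18 alternatives. The gene that rose with DNMT3a siRNA was also Trp53inp2 (0.29 ± 0.08, adjusted p = 0.0478), a call that held in 5 of 18 alternatives and, of the 9 that leave out a library, only without DNMT3a library 2. Of 21 measured genes of the p53 family and its regulators, 1 rose with DNMT3a siRNA, 4.76% beside 10.1% of all tested genes. By edgeR 0 changed with DNMT3b siRNA, where 7 had an unadjusted p under 0.05, DESeq2 called 2 and limma-voom 0. The single rise, in the damage response gene Trp53bp1, was slight (0.29 ± 0.08, adjusted p = 0.0453) and was lost on leaving out any library other than control library 3.

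Downstream of the inhibitors, genes of the G1 phase and of later phases were counted separately. Of 19 cyclins, kinases, E2F factors and pocket proteins of the G1 phase, DNMT3a siRNA raised 1 and lowered 3, and DNMT3b siRNA lowered 1 (2 to 4 and 0 to 3 in all as each library was left out). These are 21.1% and 5.26% of the list, beside 10.1% and 5.64% of all tested genes. Cdk6, the kinase that p16INK4a and p15INK4b bind, fell with DNMT3a siRNA from 104 ± 21.3 to 61.5 ± 9.39 CPM (log2 fold change -0.75 ± 0.15, adjusted p = 0.0113). Ccnd2, the cyclin D2 partner of that kinase, stood at 1670 ± 193 CPM in the controls, 1240 ± 97.6 with DNMT3a siRNA and 1140 ± 82.3 with DNMT3b siRNA, and fell in both (adjusted p = 0.0346 and 0.0151). With DNMT3a siRNA the gene that rose was E2f6 (26.7 ± 2.48 to 35.4 ± 0.355 CPM), and E2f1 also fell (33.3 ± 1.85 to 23.5 ± 2.94 CPM). These 2 calls held in 14 and 15 of 18 alternatives. The Cdk6 call held in 18 of 18 alternatives. The call on Ccnd2 with DNMT3a siRNA held in 9 of the 18, being lost on leaving out any library but control library 2 or DNMT3b library 1, and that with DNMT3b siRNA held in 15, being lost without control library 3, DNMT3b library 2 or DNMT3b library 3. Of 35 proliferation genes of S phase and mitosis, 1 rose and 1 fell with DNMT3a siRNA, 5.71% of the list. By edgeR, DESeq2 and limma-voom 0 changed with DNMT3b siRNA, with 1 at an unadjusted p under 0.05. The 35 genes summed to 1960 to 2620 CPM in the controls, 2130 to 2620 CPM with DNMT3a siRNA and 2050 to 2390 CPM with DNMT3b siRNA. Mcm7, a subunit of the replicative helicase, was the gene that fell (33.8 ± 5.06 to 18.9 ± 2.64 CPM, -0.84 ± 0.14, adjusted p = 0.00417), in 18 of 18 alternatives.

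In the apoptosis machinery, 1 gene rose and 1 fell of 25 measured with DNMT3a siRNA, and 1 rose with DNMT3b siRNA (2 to 4 and 0 to 3 in all as each library was left out). These are 8% and 4% of the list, beside 10.1% and 5.64% of all tested genes. Diablo, a mitochondrial protein that releases caspases from inhibition, rose from 20.3 ± 0.944 to 28.8 ± 0.699 CPM with DNMT3a siRNA (log2 fold change 0.51 ± 0.09, adjusted p = 0.00726). Casp6, an executioner caspase, fell from 24.6 ± 1.99 to 15.9 ± 0.545 CPM (-0.63 ± 0.11, adjusted p = 0.0048). Both held in 18 of 18 alternatives. Of the 17 integrated stress response genes, the other route to Gdf15, 0 changed with DNMT3a siRNA by edgeR and by limma-voom, 3 had an unadjusted p under 0.05, DESeq2 called 3, and the fit with the library number as a block called 2. With DNMT3b siRNA 8 of the 17 had an unadjusted p under 0.05, beside 3556 of all 16561 tested genes, and the list median was -0.35. By adjusted p 1 fell, 5.88% of the list beside 5.64% of all tested genes. That gene was Mthfd2, a mitochondrial folate enzyme, which went from 79.2 ± 3.64 to 45.2 ± 7.98 CPM (-0.81 ± 0.11, adjusted p = 0.00262, in 18 of 18 alternatives). Without DNMT3b library 1 the count in this list reached 8.

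**Figure D4:**
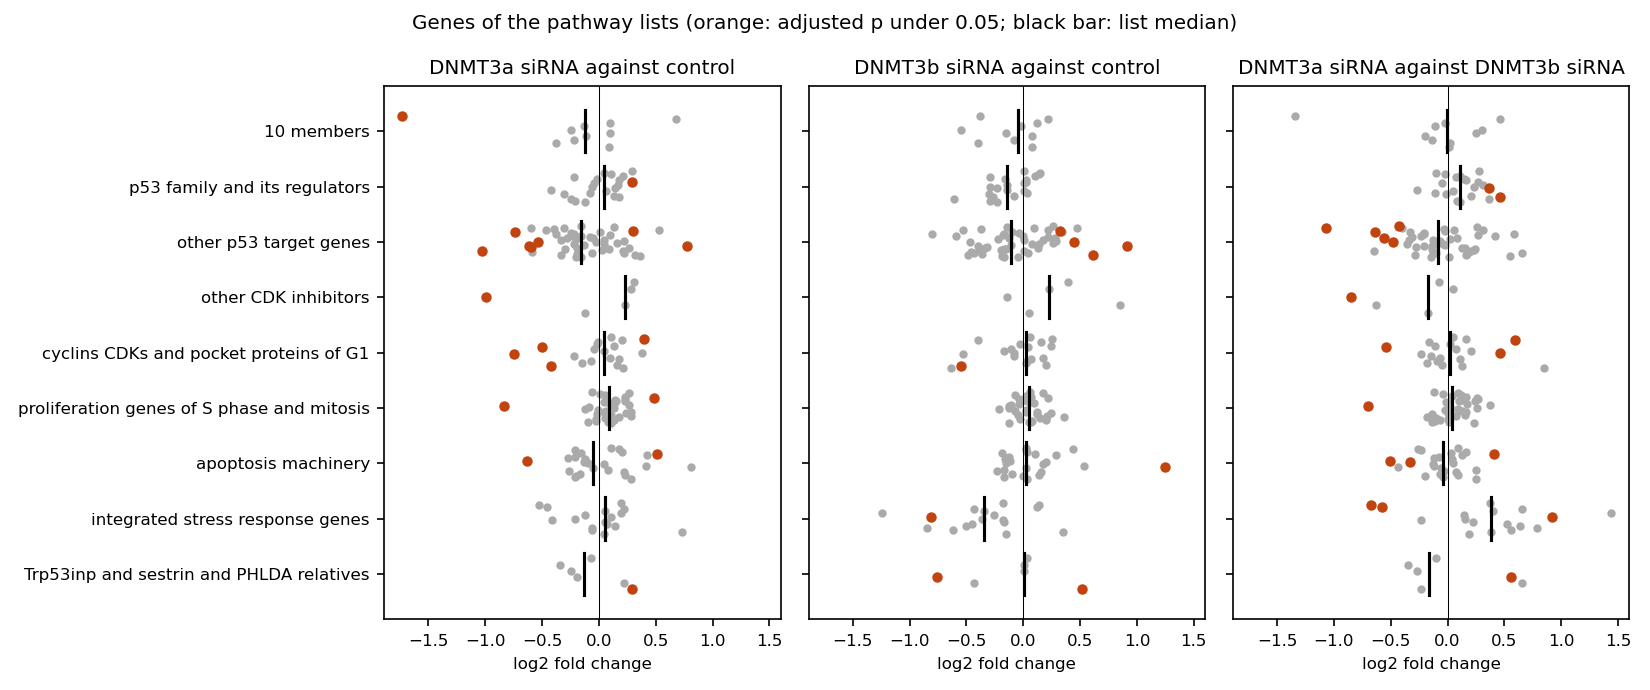
Log2 fold changes (x axis) of the measured genes of each list (y axis) in the 3 comparisons, with orange for an adjusted p under 0.05, grey for the rest and a black bar at the list median. Among the 48 other p53 targets the orange points lie on both sides of 0 with DNMT3a siRNA, 2 higher and 5 lower, and all 4 lie above 0 with DNMT3b siRNA.

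The 3 genes whose levels followed Cdkn1a most closely over the 9 libraries are named as a description. So few places cannot show whether Cdkn1a follows other p53 targets, whose correlations with it are not given. Of 10776 protein-coding genes compared, Gtf3c1, a subunit of the RNA polymerase III factor TFIIIC, had the highest correlation of log2 CPM with Cdkn1a (r = 0.951). Tnfrsf11b, which encodes osteoprotegerin, followed at r = 0.947 and Stat5b, a cytokine-responsive transcription factor, at r = 0.938. These correlations describe 9 libraries that fall into 3 groups and share the scaling of each library, and are given with no test.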

How the data were processed

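The authors deposited 1 table of whole-number read counts per library, 9 in all, with counts not normalised. The submitters' processing notes name FastQC, TopHat2 and HTSeq and the mm10 (GRCm38) build. Versions, annotation release and strand setting are not given in the sources used, and the library kit is not described as keeping strand. Reads in the 5 summary lines (not unique, ambiguous or in no feature), 49.2% to 56.2% of each table, were left out.

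Symbols, positions and exon lengths came from GENCODE mouse release M21, which named 42548 of 43629 gene identifiers. Annotated exons overlap those of Cdkn1a (on the opposite strand) and Bax (on the same strand) by genes without a row in the tables. The filter on low counts was filterByExpr of edgeR (at least 10 counts, at least 15 in total), libraries were scaled by TMM, and 1 quasi-likelihood fit (edgeR 4.0.16, R 4.3.3, robust) with group as its term took all 9 libraries, leaving 6 residual degrees of freedom. Tests were two-sided, adjusted over 16561 genes. Errors of fold changes are standard errors from the F statistic, and those of levels are SDs over 3 libraries. CPM of low genes carry counting error too: Gdf15 had a mean count of 299.7 in controls and Dnmt3b of 134.3. Alternatives were DESeq2 1.42.0, limma-voom (limma 3.58.1), other scalings and filters, the 2 groups alone, the library number as a block, each library left out, and all libraries numbered 2 left out (added after seeing the data).

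Scripts were tested on simulated counts. Replicates differed by more than sampling noise (chi-square over its degrees of freedom, 6.42 to 59.7), so no 2 were treated as the same library. This does not show that they are separate cultures. Library numbers were checked for pairing, since the labels do not say what they mark: deviations from group means correlated between same-numbered control and DNMT3a libraries at r = 0.434, 0.513 and 0.459, which is read as pairing, but between control and DNMT3b libraries at 0.212, 0.101 and 0.033. The members and lists were chosen with earlier results of these data known. Named were the 10 members, Dnmt3a, Dnmt3b, Trp53, Mdm4, the 5 other kinase inhibitors and the 3 genes closest to Cdkn1a. Others were picked from the up to 4 called genes with the smallest adjusted p in each list and comparison. Not all of those are named. Mtap, its neighbours and the promoter sequences were chosen after values were seen.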

Additional observations from a re-analysis of the deposited data

How the results depend on the processing

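Of the 10 genes, 1 changed with DNMT3a siRNA. That count was 0 with no filter on low counts and 0 in a fit of the 2 groups alone, and 0 to 2 as each library was left out. With DNMT3b siRNA it was 0, became 1 (Mdm2) without all libraries numbered 2, and was 0 to 1 as each library was left out. Between the knockdowns it was 0, became 1 (Cdkn2a) by DESeq2 and 1 by limma-voom, and was 0 to 1 as each library was left out. Adjusted p-values of Cdkn2a between the knockdowns were 0.016 by DESeq2, 0.0497 by limma-voom and 0.0496 without DNMT3a library 2. With the library number as a block the counts of called genes among the 10 were 1, 0 and 0, as without it: Cdkn2a had an adjusted p of 0.0306 with DNMT3a siRNA, Mdm2 0.0521 and Gdf15 0.0507, so that pairing changed no call of the 10. Among the other kinase inhibitors the block called Cdkn1c with DNMT3b siRNA (0.93, adjusted p = 0.0101) and between the knockdowns (-0.67, adjusted p = 0.0282). Deviations of same-numbered control and DNMT3b libraries correlated at only 0.212, 0.101 and 0.033, and what the numbers mark is not stated. Cdkn1c was called in both comparisons as well without all libraries numbered 2 (adjusted p = 0.000714 and 0.0053). Without all libraries numbered 2, Mdm2 was called with DNMT3b siRNA (0.0473) and Gdf15 with DNMT3a siRNA (0.0483). Block counts over all tested genes rose to 14.3%, 10.9% and 15.2% of genes called.

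Signs turned in 30 cases, none of them a called value. As each library was left out, the log2 fold changes that crossed 0 ran, with DNMT3a siRNA, from -0.03 to 0.22 for Cdkn1a, 0 to 0.2 for Bbc3, -0.22 to 0.01 for Sesn1 and -0.05 to 0.65 for Cdkn1c. With DNMT3b siRNA they ran from 0 to 0.21 for Cdkn1a, -0.23 to 0.09 for Ccng1, -0.11 to 0.12 for Sesn1, -0.03 to 0.13 for Cdkn1b and -0.23 to 0.02 for Cdkn2b. Between the knockdowns they ran from -0.11 to 0.11 for Cdkn1a, -0.08 to 0.1 for Mdm2, -0.28 to 0.01 for Ccng1, -0.04 to 0.01 for Phlda3, -0.1 to 0.14 for Cdkn2c and -0.21 to 0.01 for Cdkn2d. Without all libraries numbered 2, the sign turned with DNMT3b siRNA for Cdkn1a (-0.01), Sesn1 (0.11) and Cdkn2b (0.02), and between the knockdowns for Phlda3 (0.03). It turned for Sesn1 with library size alone (0.01), and for Cdkn1a between the knockdowns with DESeq2's size factors (0), a 1 CPM filter (0), limma-voom (0) and the block (-0.01). The causes were not tested. With 3 libraries a group the 95% intervals of Trp53inp1, Gdf15 and Cdkn2a are wide.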
